A study of Homo sapiens with 6 samples.

Results

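PPAR signalling and fatty acid oxidation were followed through 35 listed genes, from the nuclear receptors that control lipid burning to the enzymes that carry it out. A gene was taken in when the platform annotation named it alone for at least 1 probe set. This held for 34 of the 35 genes, which have 77 probe sets, out of 19775 genes with a probe set of their own, and no probe set was named here for ACSL3. The cells were HT29, a human colon adenocarcinoma line. They were exposed to NS398, which blocks cyclooxygenase-2 (COX2) selectively, and 3 NS398 and 3 control samples were each read on 1 HG-U133 Plus 2.0 expression array. By the methods of the study the drug was dissolved in DMSO and given in serum-free medium, where control cells received DMSO, and the arrays used the highest of the doses tested. The labels state neither dose nor duration. The groups are called NS398 and control after these labels, and each difference is the NS398 mean minus the control mean of log2 signals, so that 1 is a doubling. Where the study gives a direction for a gene in words, these arrays as labelled gave the opposite sign for most such genes, so every sign below is that of the deposited labels.

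Fatty acids enter this pathway when acyl-CoA synthetases join them to coenzyme A. Carnitine palmitoyltransferases and a carnitine carrier then move long chains into mitochondria, where repeated cycles of dehydrogenation, hydration, dehydrogenation and thiolysis shorten them, while peroxisomes shorten very long chains. The peroxisome proliferator-activated receptors (PPARs) are nuclear receptors that bind fatty acids, pair with RXR and switch on many of these genes, helped by the coactivators PGC-1alpha and PGC-1beta and by the orphan receptor ERRalpha. In the intestine PPARs take part in fat handling and differentiation of the epithelium.

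The signals are linear, with the same trimmed mean of 500 on every array, so they are not the quantile-normalised values that the methods describe. Probe sets whose log2 signal averaged over 7 are called bright below. Across bright probe sets Pearson's r lay between 0.961 and 0.983 for arrays of 1 group and between 0.931 and 0.952 for arrays of different groups. The 3' to 5' ratio of the ACTB control probe sets, a measure of RNA integrity, was 1.56 ± 0.13 in NS398 and 1.29 ± 0.03 in control arrays (SD, n = 3 each, exact permutation p = 0.1, two-sided, the smallest that 3 against 3 arrays allow), and the 18S rRNA signal was 4825 to 23625 in NS398 and 3453 to 4856 in control arrays (exact permutation p = 0.2). The part of either in the differences below was not tested. Of 12 epithelial marker genes 10 were bright, and EPCAM lay between 23145 and 28427 in the 6 arrays, while the intestinal regulators CDX1 and CDX2 did not exceed 89.5 in any. Of the 12 epithelial genes 3 rose, CEACAM5 by 4.09 ± 0.20, KRT20 by 1.15 ± 0.11 and CLDN7 by 0.80 ± 0.17, and VIL1 fell (-0.71 ± 0.13). CLDN7 did not pass after median centring of the arrays, or without control replicate 2 or 3 or NS398 replicate 1 or 3. VIL1 did not pass as the mean of its probe sets. The part of these marker differences in the results was not tested. Of 7 measured adipocyte markers PLIN1 and GPD1 rose (differences of 3.49 and 2.51) and 5 did not pass. PLIN1 and GPD1 both lay below the array median in every control array. The summed signal of all 7 was 591 to 655 in NS398 and 247 to 341 in control arrays. ADIPOQ, FABP4, LEP and LPL lay between 3.0 and 64.0 in every array, and CIDEC averaged 201 in NS398 and 147 in control arrays (0.45 ± 0.29). Of the markers of other cells 0 of 10 leukocyte and 0 of 6 endothelial genes passed, 2 of 8 hepatocyte genes fell (TTR and SERPINA1) and 1 of 8 fibroblast genes rose (LUM), and their part in the results was not tested. SERPINA1 did not pass as the mean of its probe sets.

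Of the 34 measured genes 8 rose, 3 fell and 23 did not pass (limma with a prior variance that follows the signal, Benjamini-Hochberg adjusted p under 0.05 over all 54675 probe sets). Over all genes, each read from its brightest probe set, 10.1% passed, 5.23% higher and 4.85% lower. The members that passed were 11 of 34, and 32 of the 34 were bright. Of all 10668 bright genes 17.7% passed, 967 higher and 924 lower. The groups did not overlap in 19 of 34 members, against 30.6% of all genes and 45.1% of the bright ones. They were 11 members with higher and 8 with lower NS398 values, against 17.2% and 13.5% of all genes. Among the 10668 bright genes 2536 were higher and 2275 lower without overlap. The median difference was 0.03 over the members, 0.06 over all genes and 0.01 over the bright ones. The 8 that rose were 4 receptor and coactivator genes, 3 genes of fatty acid activation and entry, and PDK4, and the 3 that fell were the oxidation enzymes ACADS and ACAA1 and the carrier UCP2.

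**Figure D1:**
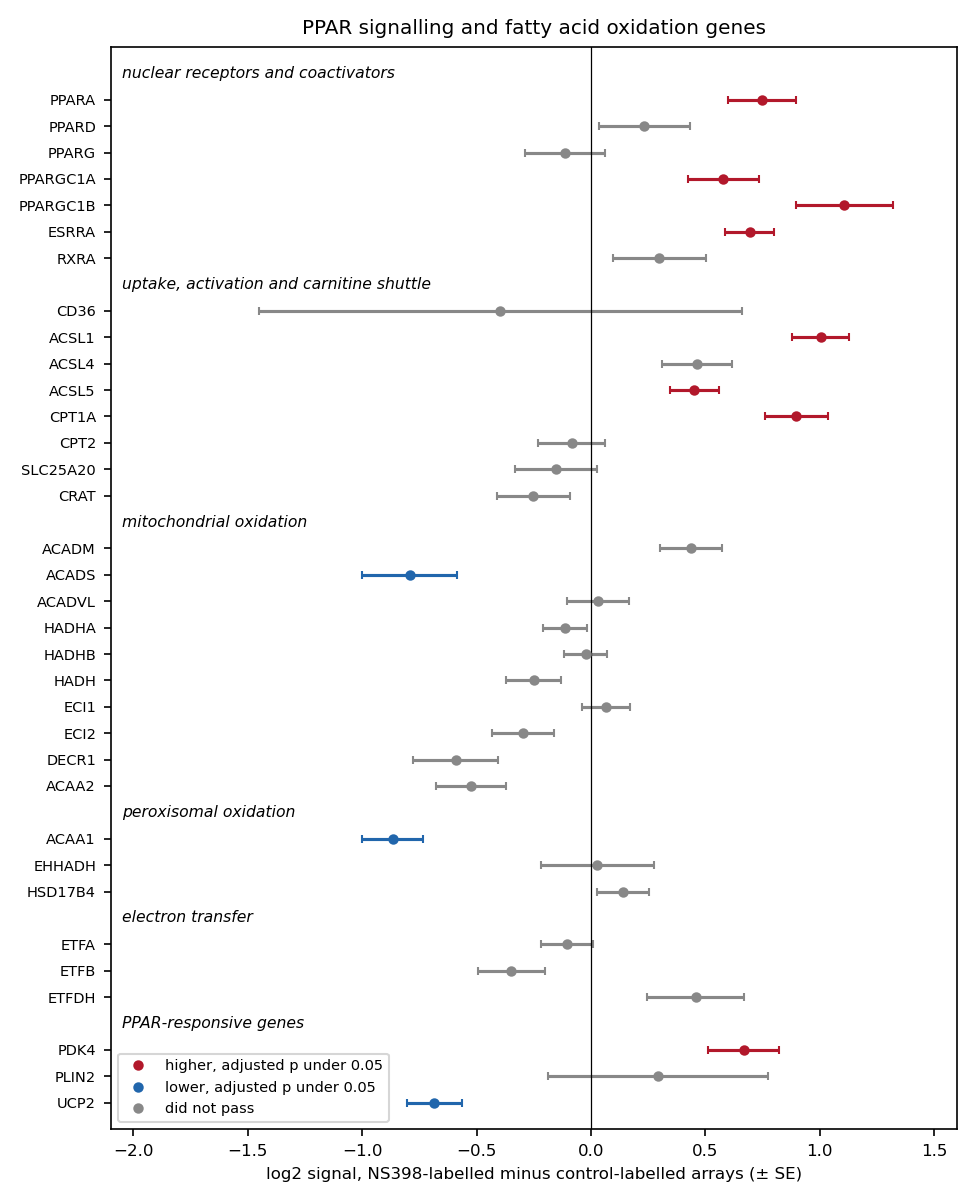
Difference in log2 signal, NS398-labelled minus control-labelled arrays (n = 3 each), with the standard error (bars) for 34 genes in 6 groups. Red points rose and blue points fell by the limma test; PPARGC1B (1.11) and ACSL1 (1.00) lay farthest right among those that passed, and ACAA1 (-0.87) farthest left.

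These counts depended on arrays and on scaling. Without NS398 replicate 1 only 5 members passed, without NS398 replicate 2 it was 7, and without NS398 replicate 3 or without control replicate 3 it was 6. Centring every array on its median lowered all differences by 0.12 and left 4 members higher and 4 lower, and over all probe sets it gave 864 higher and 1943 lower calls in place of 1782 and 1731. ESRRA, ACSL1, CPT1A, ACAA1 and UCP2 passed in all 13 alternatives that kept the variance trend. The plain limma test, in which dim and bright probe sets share 1 prior variance, called 0 members and 0.0759% of all genes. By that test 11 of 34 members had an unadjusted p under 0.05, against 17.6% of all genes, and over bright probe sets only it called 10 of 32 members, against 19.6% of all bright genes, all 10 among the 11 that passed.

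Of the 3 PPAR genes PPARA rose, and PPARD and PPARG did not pass. PPARA, whose product drives fatty acid oxidation in liver, heart and gut, had signals of 897, 802 and 929 in NS398 arrays and 476, 528 and 563 in control arrays. Every NS398 array lay above every control array, and the difference was 0.75 ± 0.15 (SE, limma adjusted p = 0.0118). Its next probe sets by signal gave 0.79 ± 0.16 and 0.79 ± 0.18, and both passed as well (adjusted p = 0.0148 and 0.0233). PPARD, the receptor expressed most widely over tissues, had signals of 1080, 1002 and 1250 in NS398 arrays and 1310, 750 and 847 in control arrays, which overlapped (0.23, 95% interval -0.20 to 0.67, adjusted p = 0.606). PPARG, the receptor of fat cell differentiation that is also abundant in colon epithelium, had 3033, 2800 and 2797 in NS398 arrays and 4285, 2475 and 2845 in control arrays, and control replicate 1 alone stood above the rest (-0.11, interval -0.50 to 0.27, adjusted p = 0.799). The call of PPARA was lost without NS398 replicate 1 (adjusted p = 0.0585) or NS398 replicate 3 (0.0515), after median centring (0.0715), and when its 9 probe sets were averaged (0.131).

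A search of the 250 bases before each RefSeq start (GRCh38.p14) covered 4 motifs on both strands. The matches at the receptor genes are shown in capitals, and their part in the differences was not tested. At PPARA the palindrome bound by the respiratory gene activator NRF1, GCGCA followed by its reverse complement TGCGC, begins 20 bases before a start on chromosome 22 (chr22:46150758-46150787, plus strand), and at PPARG the hexamer AGGTCA, the core of nuclear receptor sites, lies 217 and 184 bases before the outermost start on chromosome 3 (chr3:12287118-12287207, plus strand) and once more before an inner pair of starts.
PPARA: gggctgggcgGCGCATGCGCggggcccggg
PPARG: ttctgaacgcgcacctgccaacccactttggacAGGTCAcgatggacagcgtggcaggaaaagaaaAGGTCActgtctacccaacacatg
The palindrome is in 1.03% and the hexamer, on either strand, in 12.1% of all 35116 windows of this length. Windows were matched for 30 of the 35 genes, all but ACAA1, DECR1, ETFDH, EHHADH and CRAT. Among the 30 the palindrome was found at PPARA only and the hexamer at PPARG and ACSL5. A pair of AGGTCA hexamers in tandem with 1 base between them, the consensus letters of the PPAR element, and the ERR element TCAAGGTCA each hold that hexamer. They were found at none of the 30, and in 0.0171% and 0.319% of all windows. Only exact letters within the 250 bases were searched, so elements with other letters or farther away were not covered. A match in these letters is a description and not a binding site.

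Both PGC-1 coactivator genes and ESRRA rose with PPARA. PPARGC1B, the gene of PGC-1beta, had signals of 449, 409 and 404 in NS398 arrays and 246, 174 and 173 in control arrays, a 2.16-fold increase with no overlap (1.11 ± 0.21, limma adjusted p = 0.00980). PPARGC1A, the gene of PGC-1alpha, which drives mitochondrial biogenesis, had 710, 630 and 746 in NS398 arrays and 458, 439 and 499 in control arrays (0.58 ± 0.15, adjusted p = 0.0494). The call of PPARGC1A rested on a narrow margin. ESRRA, which encodes ERRalpha and is both partner and target of the PGC-1 proteins, had 4018, 3845 and 4576 in NS398 arrays and 2647, 2532 and 2490 in control arrays. The difference was 0.69 ± 0.11 (adjusted p = 0.00284), and the other ESRRA probe set gave 0.68 ± 0.16 and passed too (adjusted p = 0.0251). RXRA, the partner of all PPARs, had 2344, 1918 and 2438 in NS398 arrays and 2409, 1272 and 1924 in control arrays, with overlap (0.30, interval -0.15 to 0.75, adjusted p = 0.496). PPARGC1B did not pass without control replicate 3 (adjusted p = 0.0509), without NS398 replicate 1 (0.0549) or as the mean of its 4 probe sets (0.126). PPARGC1A did not pass without any 1 of the 6 arrays (0.0663 to 0.161), with the replicate number as a block (0.114) or with array weights (0.0522), after median centring (0.239) or as the mean of its probe sets (0.391).

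At the entry of the pathway 3 of 8 measured genes rose and 0 fell, a share of 37.5%, and 7 of the 8 were bright. Over all genes 10.1% passed, and 17.7% of the bright ones. ACSL1, an acyl-CoA synthetase of the outer mitochondrial membrane and endoplasmic reticulum and a textbook PPAR target, had signals of 6643, 6334 and 5817 in NS398 arrays and 2605, 3369 and 3452 in control arrays. The groups were far apart, at 2.01-fold (1.00 ± 0.12, limma adjusted p = 7.94e-04), and the other ACSL1 probe set passed at 0.58 ± 0.12 (adjusted p = 0.0133). ACSL5, the synthetase most abundant in intestinal epithelium, had 7860, 7400 and 6876 in NS398 arrays and 6079, 4954 and 5192 in control arrays (0.45 ± 0.11, adjusted p = 0.0293). Its other probe set differed by 0.11 ± 0.09 and did not pass (adjusted p = 0.600). ACSL4, which prefers arachidonate, the fatty acid that COX2 also uses, had 1378, 1062 and 1135 in NS398 arrays and 763, 854 and 974 in control arrays, without overlap (0.46 ± 0.15, adjusted p = 0.113). The ACSL5 call was lost without control replicate 2 (adjusted p = 0.0870), without control replicate 3 (0.125), without NS398 replicates 1, 2 and 3 (0.138, 0.123 and 0.0515), after median centring (0.265) and as the mean of both probe sets (0.101).

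ACSL5 is the only member of this arm with the AGGTCA hexamer in its searched window, printed here with the match in capitals (GRCh38.p14, chr10:112375018-112375107, plus strand, ending 161 bases before the outermost start).
ACSL5: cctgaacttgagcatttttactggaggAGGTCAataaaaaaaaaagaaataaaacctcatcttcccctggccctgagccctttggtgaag
ACSL1 and CPT1A had none of the 4 motifs in their windows, and the part of any motif in the differences was not tested.

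CPT1A, the outer membrane carnitine palmitoyltransferase and rate-limiting step of mitochondrial fatty acid entry, rose. Its signals were 2563, 2364 and 2931 in NS398 arrays and 1545, 1471 and 1207 in control arrays, so that each NS398 array exceeded each control array. The difference was 0.90 ± 0.14, or 1.86-fold (limma adjusted p = 0.00260), and another of its 4 probe sets, with signals of 175 to 286 in NS398 and 59.9 to 106 in control arrays, passed at 1.55 ± 0.33 (adjusted p = 0.0173). The later steps of the shuttle did not pass. CPT2, the inner membrane enzyme that reverses the CPT1A reaction, averaged 850 in NS398 and 901 in control arrays as geometric means (-0.08, interval -0.41 to 0.24, adjusted p = 0.830), and its other probe set differed by -0.57 ± 0.17 (adjusted p = 0.0743). SLC25A20, the carnitine-acylcarnitine carrier, averaged 627 in NS398 and 697 in control arrays (-0.15, interval -0.55 to 0.24, adjusted p = 0.726). CRAT, which makes short acylcarnitines, averaged 831 in NS398 and 990 in control arrays (-0.25, interval -0.60 to 0.10, adjusted p = 0.455). CD36, a fatty acid transporter of the plasma membrane, was listed at 10.5, 11 and 45.9 in NS398 arrays and 56.4, 5.7 and 37.6 in control arrays, below the median of each array (65 to 80.2), so no level of it was resolved.

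**Figure D2:**
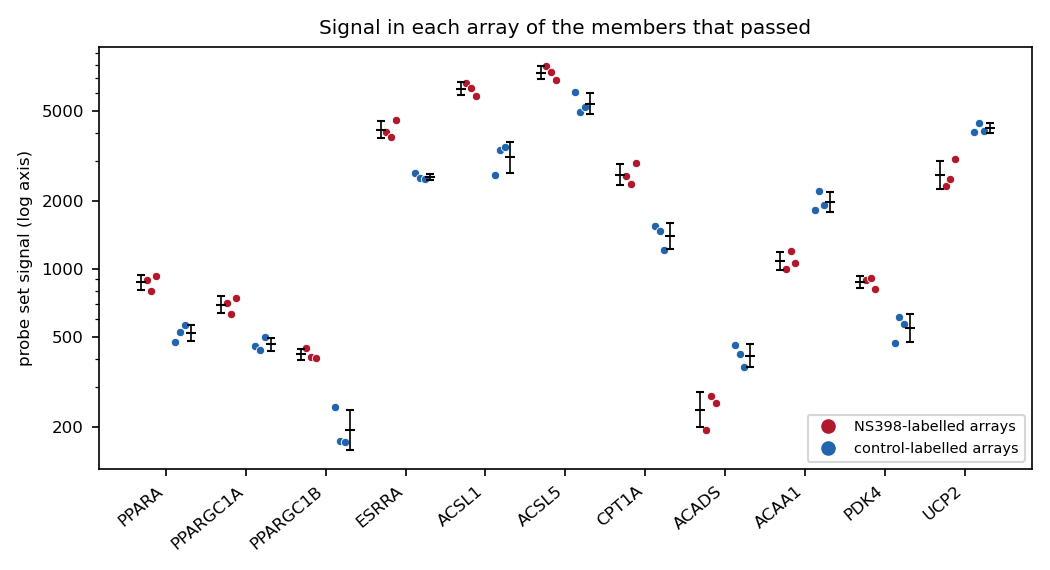
Probe set signal (log axis) in each of the 3 NS398-labelled (red) and 3 control-labelled (blue) arrays for the 11 members that passed, with the geometric mean ± SD of the log2 signal beside each group (black). The groups of all 11 genes are separate; ACSL1 averaged 6255 in NS398 and 3117 in control arrays, and UCP2 averaged 2604 in NS398 and 4183 in control arrays.

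The enzymes of the oxidation spiral itself showed 0 increases and 2 decreases among 16 measured genes, counting mitochondrial, peroxisomal and electron transfer members, with a median difference of -0.11. All 16 were bright, and their share of 12.5% lies between that of all genes (10.1%) and that of bright genes (17.7%). In mitochondria the first dehydrogenation is done by enzymes of different chain length. ACADS, for short chains, fell, with signals of 195, 275 and 255 in NS398 arrays and 462, 419 and 368 in control arrays (-0.79 ± 0.21, limma adjusted p = 0.0452). ACADM, for medium chains, lay in the other direction, with 4190, 3840 and 3343 in NS398 arrays and 2335, 3050 and 3043 in control arrays, separate groups that did not pass (0.44 ± 0.14, adjusted p = 0.0889). ACADVL, for very long chains, averaged 4472 in NS398 and 4378 in control arrays (0.03, interval -0.27 to 0.33, adjusted p = 0.941). ACADM passed when only bright probe sets were tested (adjusted p = 0.0444), and ACADS did not pass without any 1 of the 6 arrays (0.0805 to 0.165), with the replicate block (0.103) or with array weights (0.0521).

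HADHA and HADHB encode the subunits of the mitochondrial trifunctional protein, which carries out the remaining steps on long chains. HADHA had signals of 4273, 4421 and 3994 in NS398 arrays and 4585, 4476 and 4645 in control arrays, separate by a small margin (-0.11, interval -0.32 to 0.10, adjusted p = 0.602). HADHB had 6260, 5776 and 5950 in NS398 arrays and 6378, 6158 and 5740 in control arrays, which overlapped (-0.02, interval -0.23 to 0.18, adjusted p = 0.936). These were the narrowest intervals among the members. The genes lie head to head on chromosome 2 with RefSeq starts 307 bases apart, and most of the sequence between them is shown because it is upstream of both (GRCh38.p14, chr2:26244689-26244938, on the strand of HADHB, in lower case throughout since none of the 4 motifs was found).
HADHA and HADHB: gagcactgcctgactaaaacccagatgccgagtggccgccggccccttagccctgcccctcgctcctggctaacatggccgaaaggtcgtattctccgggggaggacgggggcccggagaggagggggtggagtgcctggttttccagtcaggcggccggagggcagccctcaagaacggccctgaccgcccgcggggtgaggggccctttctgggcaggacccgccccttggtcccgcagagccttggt

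Other enzymes of the list of mitochondrial oxidation had lower means in NS398 arrays without passing. ACAA2, the thiolase for medium chains, had signals of 2393, 2054 and 2199 in NS398 arrays and 3939, 2539 and 3228 in control arrays. All its NS398 values were below all its control values (-0.53 ± 0.15, adjusted p = 0.0703), and its other probe sets differed by -0.63 and -0.61. DECR1, a reductase needed for polyunsaturated chains, had 1134, 1001 and 1173 in NS398 arrays and 1240, 2152 and 1708 in control arrays, also separate (-0.59 ± 0.18, adjusted p = 0.0917). ECI2, an enoyl-CoA isomerase for unsaturated chains, had 1450, 1515 and 1375 in NS398 arrays and 2094, 1565 and 1703 in control arrays (-0.30 ± 0.14, adjusted p = 0.275), while its relative ECI1 averaged 3193 in NS398 and 3050 in control arrays (0.07, interval -0.16 to 0.30, adjusted p = 0.807). HADH, the dehydrogenase for shorter hydroxyacyl chains, averaged 2388 in NS398 and 2842 in control arrays (-0.25 ± 0.12, adjusted p = 0.309), but the second of its 3 probe sets fell, with 1761, 1831 and 1899 in NS398 arrays and 2826, 2158 and 2744 in control arrays (-0.48 ± 0.13, adjusted p = 0.0488). DECR1 passed without control replicate 1 (adjusted p = 0.00854) and after median centring (0.0398), ACAA2 passed without control replicate 2 (0.0184) and as the mean of its probe sets (0.0434), and both passed with array weights (0.0359 and 0.0388) and when only bright probe sets were tested (0.0466 and 0.0358).

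In peroxisomes ACAA1, the thiolase that ends the straight-chain spiral, fell. Its signals were 1004, 1195 and 1057 in NS398 arrays and 1817, 2219 and 1912 in control arrays, with a wide gap between the groups (-0.87 ± 0.13, limma adjusted p = 0.00265). Its other probe set, of a type that can cross-hybridise, had the same sign and overlapped (-0.36 ± 0.21, adjusted p = 0.426). The bifunctional enzymes that precede the thiolase did not pass. EHHADH, a classical PPARA target in rodent liver, had 281, 193 and 194 in NS398 arrays and 248, 224 and 179 in control arrays (0.03, interval -0.52 to 0.57, adjusted p = 0.972), and HSD17B4, which acts on branched and very long chains, averaged 4370 in NS398 and 3966 in control arrays (0.14, interval -0.11 to 0.39, adjusted p = 0.589).

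The electron transfer flavoprotein passes electrons from the acyl-CoA dehydrogenases to the respiratory chain. Of the 3 genes listed for this transfer 0 passed. ETFA averaged 9029 in NS398 and 9707 in control arrays (-0.10, interval -0.35 to 0.15, adjusted p = 0.703). ETFB had signals of 4482, 4583 and 4532 in NS398 arrays and 7474, 4874 and 5267 in control arrays, separate but with control replicate 1 far above the others (-0.35 ± 0.14, adjusted p = 0.221). ETFDH, the oxidoreductase that hands the electrons to ubiquinone, had 399, 292 and 293 in NS398 arrays and 256, 243 and 212 in control arrays, separate in the other direction (0.46 ± 0.21, adjusted p = 0.282).

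Among 3 genes that answer to PPARs but lie beside the pathway, PDK4 rose and UCP2 fell. PDK4, a kinase that shuts pyruvate dehydrogenase when fat is burnt, had signals of 892, 913 and 814 in NS398 arrays and 470, 616 and 571 in control arrays, all NS398 values being higher (0.67 ± 0.16, or 1.59-fold, limma adjusted p = 0.0270). UCP2, an inner membrane carrier named for its likeness to the uncoupling protein of brown fat, had 2318, 2495 and 3053 in NS398 arrays and 4036, 4437 and 4088 in control arrays (-0.68 ± 0.12, adjusted p = 0.00659). The UCP2 groups were separate, with a mean 1.61-fold higher in control arrays. PLIN2, the lipid droplet coat protein that is a sensitive PPAR target in many tissues, was dim. Its brightest probe set, of a type that can cross-hybridise, had 93.9, 90.3 and 51.1 in NS398 arrays and 71.4, 36.3 and 90.9 in control arrays. These overlapped (0.29, interval -0.77 to 1.36, limma adjusted p = 0.817), and this interval leaves a doubling within reach. The other PLIN2 probe set, also dim, was higher in NS398 arrays without overlap (0.67 ± 0.46) and did not pass (limma adjusted p = 0.498). PDK4 did not pass without control replicate 3 (adjusted p = 0.0824), without NS398 replicates 1, 2 and 3 (0.105, 0.125 and 0.0562), with the replicate block (0.0680), after median centring (0.113) or as the mean of its 3 probe sets (0.611), of which the other 2 were dim.

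Probe sets of the same gene mostly pointed the same way. Of the 34 genes 22 had more than 1 probe set, and 41 of the 43 additional probe sets had the sign of the brightest, among them all 26 bright ones. The exceptions were dim, 1 each for PPARA (-0.11 ± 0.47) and PPARD (-0.34 ± 1.11). Of the additional probe sets 7 passed, against 6.43% of all probe sets, and all 7 had the sign of the brightest. They belong to PPARA (2), PPARGC1B, ESRRA, ACSL1 and CPT1A, all higher, and HADH, lower. Probe sets of 1 gene read the same RNA, so this is no replication of the treatment.

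**Figure D3:**
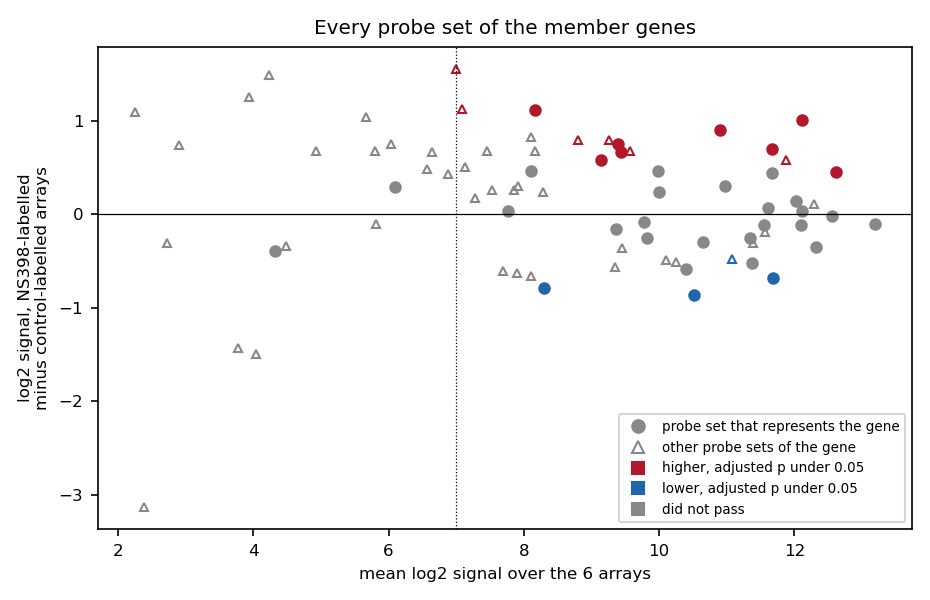
Difference in log2 signal, NS398-labelled minus control-labelled arrays, of all 77 probe sets of the 34 genes against their mean log2 signal over the 6 arrays; circles represent a gene, triangles are its other probe sets, and the dotted line marks a mean log2 signal of 7. The differences scatter from -3.13 to 1.49 left of the line, where 0 probe sets passed, and stay between -0.87 and 1.55 right of it, where 18 passed.

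Other genes of the pathway were read in 5 further lists. These lists were chosen with earlier results of these data known, so their shares are descriptions and not tests. Of 35 measured PPAR targets outside the members 7 rose and 3 fell, and 16 of the 35 were bright. The median difference was 0.34, beside 0.06 over all genes. The share that passed was 28.6%, against 10.1% of all genes and 17.7% of bright genes. FABP1, the fatty acid binding protein of enterocytes and liver, had signals of 5075, 4155 and 3241 in NS398 arrays and 1392, 814 and 856 in control arrays (2.05 ± 0.21, limma adjusted p = 2.98e-04). VLDLR, a lipoprotein receptor, had 438, 555 and 496 in NS398 arrays and 168, 117 and 152 in control arrays (1.78 ± 0.22, adjusted p = 7.67e-04). PLIN1, the droplet coat protein of fat cells, had 136, 171 and 180 in NS398 arrays and 7.9, 20.2 and 18.6 in control arrays, where it was below the array median (3.49 ± 0.55, adjusted p = 0.00323). AQP3, a channel for water and glycerol, fell, with 992, 1051 and 1050 in NS398 arrays and 4820, 3218 and 3616 in control arrays (-1.89 ± 0.15, adjusted p = 4.70e-05). These 4 genes passed in all alternatives that kept the variance trend and tested them, PLIN1 being too dim for the set of bright probe sets. The other 6 that passed, named after their values were seen, were NR1H3, MGLL, PEX11A and PLIN4, higher, and PLIN3 and TXNIP, lower. Of these PEX11A did not pass without NS398 replicate 1 (adjusted p = 0.0594), PLIN4 without NS398 replicate 2 (0.0580) or NS398 replicate 3 (0.0573), and TXNIP without control replicate 3 (0.0632) or NS398 replicate 2 (0.0694). Of the measured genes 5 are also in the adipocyte list above, PLIN1 among them, and the part of other cells in these values was not tested.

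In the list of further enzymes 3 genes passed, and in that of coregulators 0. Of 28 measured fatty acid oxidation enzymes outside the members 2 rose and 1 fell. PECR, a peroxisomal enoyl-CoA reductase, rose by 1.41 ± 0.28 (limma adjusted p = 0.0125). Its probe set is of a type that can cross-hybridise, and its NS398 signals were uneven, at 1301, 506 and 916. ACAT1, a mitochondrial thiolase of ketone body metabolism, rose by 0.48 ± 0.11 (adjusted p = 0.0214). IVD, a dehydrogenase of leucine breakdown, fell by 0.50, with an SE of 0.13 (adjusted p = 0.0434). The share that passed was 10.7%, against 10.1% of all genes and 17.7% of bright genes, and 22 of the 28 were bright. Of 20 measured receptors, partners and coregulators, which include NCOA1, MED1, TFAM and NRF1, 0 passed by limma, with 3 at an unadjusted p under 0.05 and 0 by the plain test. Of these 20 genes 15 were bright. PECR did not pass without control replicate 3 (adjusted p = 0.0505) or NS398 replicate 3 (0.0561). ACAT1 did not pass without control replicate 2 (0.0682), control replicate 3 (0.0563), NS398 replicate 1 (0.110) or NS398 replicate 2 (0.0859), and IVD did not pass without any 1 array other than control replicate 2 (0.0779 to 0.171). Both also lost their calls after median centring (0.257 for ACAT1 and 0.0619 for IVD), with the replicate block (0.0566 and 0.106) and as the mean of their probe sets, which was 0.94 for ACAT1 (0.265) and -0.14 for IVD (0.725).

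The genes downstream of fatty acid oxidation and at the gate for pyruvate were read beside them. All measured ones were bright. Of the respiratory chain subunits 3.1% passed and of the pyruvate genes 18.2%, against 17.7% of all bright genes. Of 32 respiratory chain subunits SDHA, the flavoprotein of complex II, fell (-0.73 ± 0.17, limma adjusted p = 0.0245) and 31 did not pass, and the median of the list was 0.02. SDHA has near-identical pseudogene copies that its probe set may also read. Of 11 genes of the pyruvate dehydrogenase complex, its kinases and phosphatase and the pyruvate carrier, MPC1 rose (0.61 ± 0.14, adjusted p = 0.0265) and MPC2 fell (-0.50 ± 0.10, adjusted p = 0.0148). These encode the subunits of the mitochondrial pyruvate carrier, and MPC1 had signals of 1873, 1764 and 1697 in NS398 arrays and 970, 1234 and 1323 in control arrays while MPC2 had 4341, 4468 and 3779 in NS398 arrays and 5554, 6184 and 6068 in control arrays. The other PDK genes, PDK1, PDK2 and PDK3, differed by 0.21 ± 0.28, -0.28 ± 0.20 and -0.22 ± 0.21 and did not pass. Calls were lost without NS398 replicates 1, 2 and 3 for SDHA (adjusted p = 0.104, 0.0764 and 0.0733) and MPC1 (0.114, 0.103 and 0.0627), and without control replicate 3 or NS398 replicate 3 for MPC2 (0.0764 and 0.0624). MPC1 also did not pass after median centring (0.146), with the replicate block (0.0677) or as the mean of its probe sets (0.30, adjusted p = 0.851).

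**Figure D4:**
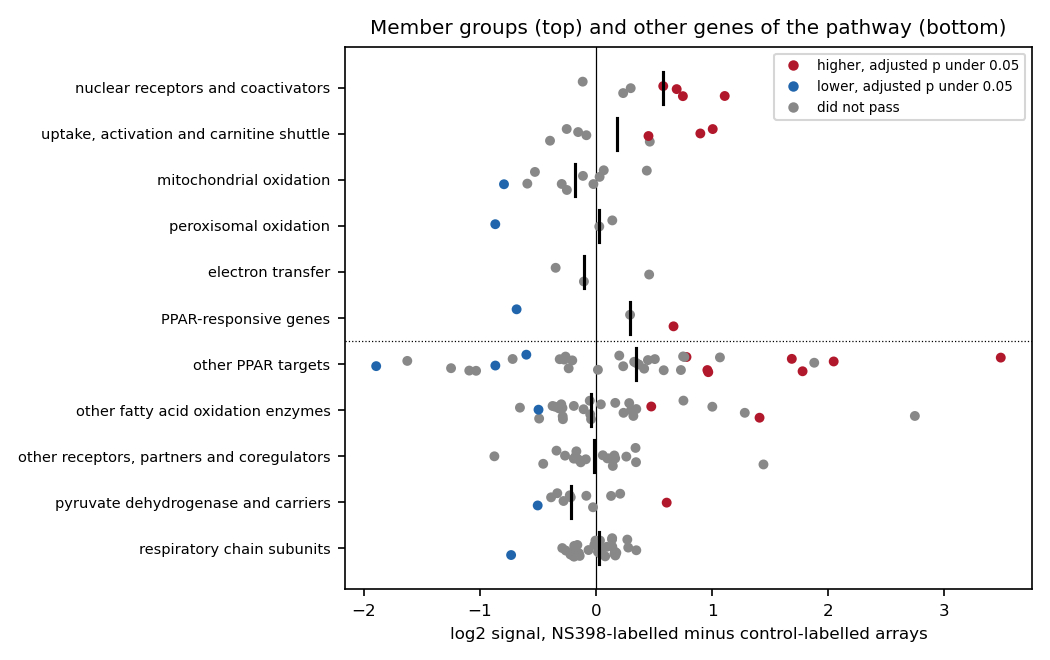
Difference in log2 signal, NS398-labelled minus control-labelled arrays, of each gene (points) in the 6 groups of members above the dotted line and 5 lists of other genes of the pathway below it, with the median of each list (black bar). The median of the receptors and coactivators was 0.58, that of the list of mitochondrial oxidation -0.18 and that of the respiratory chain subunits 0.02.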

How the data were processed

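Total RNA of HT29 cells was extracted with RNeasy Mini, labelled with biotin and hybridised on HG-U133 Plus 2.0 arrays. The deposited values are linear intensity values, 1 per probe set and array, which the authors had scaled to a common mean of 500 after trimming 2% at each end. The affy package is in the submitters' processing notes; its version is not given in the sources used here. The study names gcRMA, but the arrays do not share quantiles. Of 54675 probe sets 41097 name 1 gene, 1801 several and 11777 none in the platform annotation. Signals were put on the log2 scale without offset, and each gene was read from the brightest (by its mean) of the probe sets naming that gene alone.

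Groups were taken from the titles. The test was limma 3.58.1 in R 4.3.3 (lmFit, then eBayes with a robust variance trend, median prior df 7.07, against 1.36 for the plain test), adjusted over all probe sets by Benjamini-Hochberg at 0.05. SEs and 95% intervals are those of this fit. SAM, named by the study, was not run. The members, lists and tests were chosen with earlier results of these data known. Members that passed or did not overlap are given per array, and up to 4 genes with the smallest p per further list are named. The scripts were tested on simulated data with 50 planted changes of each size. The test with the variance trend recovered 0 of 26 bright ones at 1.5-fold, 3 of 19 at 2-fold and 12 of 19 at 4-fold. The planted changes were far fewer than the calls in these arrays, so these rates need not hold here. The study calls samples of a group biological replicates, but no label says whether cultures were separate, so p-values cover the spread of these samples, which may be technical. Precision is limited by 3 arrays per group. Promoter sequences are from RefSeq (GRCh38.p14). Plots used matplotlib 3.10.9.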

Additional observations from a re-analysis of the deposited data

How the results depend on the processing

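Each comparison was repeated with plain limma, median centring, bright probe sets only (mean log2 signal above 7), quantile normalisation, an offset of 32 before the logarithm, array weights, the replicate number as a block, the mean of a gene's probe sets, and without each array in turn. Plain limma over bright probe sets only, and the alternatives for single genes outside the members, for the agreement of probe sets and for the values per array, were added after seeing the data. No difference of a member that passed changed sign. With an offset of 32 and with quantile normalisation all 34 members kept their side of the threshold.

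Plain limma called 24 probe sets, 0 members and 0 of the genes in the 5 further lists, where the variance trend called 3513, 11 and 16. Single arrays moved these counts to between 1826 and 3984 probe sets, 5 and 10 members (3 to 7 higher, 2 to 3 lower) and 10 and 19 further genes. Median centring left 4 members higher, the mean of probe sets left 7 members, 3 of them higher, and the limit on dim probe sets gave 5 lower. For ACSS1 the mean of its probe sets had the opposite sign (0.076, against -0.67 for the brightest). Same-numbered arrays of the groups did not deviate together (r across probe sets of -0.014 to -0.012 over all probe sets, -0.14 to -0.063 over bright ones). With 3 arrays per group these values cannot decide whether equal numbers mark a pairing, and the labels do not say. With the replicate block 2462 probe sets and 8 members passed, all 8 among the 11. Signals of CD36 and PLIN2 were too dim to resolve a difference.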

Other observations

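A list of 19 genes of triglyceride storage and lipolysis and a list of 14 further acyl-CoA synthetases, thioesterases and binding proteins were read after the other values were seen. Of 17 measured storage and lipolysis genes 2 rose and 0 fell, and 14 of the 17 were bright. This share of 11.8% lies between that of all genes (10.1%) and that of bright genes (17.7%). G0S2, an inhibitor of the lipase that opens fat droplets and a PPAR target, averaged 2860 in NS398 and 1543 in control arrays (0.89 ± 0.11, limma adjusted p = 8.49e-04) and passed in all 13 alternatives that kept the variance trend. GPD1, which makes glycerol 3-phosphate, averaged 165 in NS398 and 29.0 in control arrays, where it was below the array median. It differed by 2.51 ± 0.40 (limma adjusted p = 0.00341) and did not pass as the mean of its probe sets (0.120). The lipase genes LIPE (0.81 ± 0.24, adjusted p = 0.0782) and PNPLA2 (-0.33 ± 0.20, adjusted p = 0.423) did not pass.

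Of 14 measured synthetases and thioesterases 0 rose and 2 fell, ACSS1, which activates acetate in mitochondria (-0.67 ± 0.13, adjusted p = 0.0107), and SLC27A3, a fatty acid transport protein (-0.67 ± 0.17, adjusted p = 0.0438). The share that passed, 14.3%, also lies between that of all genes and that of bright genes, and 12 of the 14 were bright. For ACSS1 the mean of its probe sets turned the sign (0.076, adjusted p = 0.949). SLC27A3 did not pass with the replicate block (0.103) or without any 1 array other than NS398 replicate 3 (0.0729 to 0.164). Droplet coat genes differed in direction. Named after their values were seen, PLIN4 was higher at 1.69 ± 0.34 (adjusted p = 0.0130, and 0.0580 without NS398 replicate 2 or 0.0573 without NS398 replicate 3), and PLIN3, the widely expressed form, averaged 729 in NS398 and 1330 in control arrays (-0.87 ± 0.14, adjusted p = 0.00400).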
